A study of Homo sapiens with 6 samples.

Results

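The integrin and laminin genes described here are the rows of a gene count table from T24 bladder carcinoma cells whose symbol is that of an integrin alpha or beta subunit (ITGA or ITGB) or a laminin alpha, beta or gamma chain (LAMA, LAMB or LAMC). The set was chosen by symbol alone and holds 34 of the 33542 genes of the table, 22 of them integrin genes and 12 laminin genes. ITGAM and ITGA8 were not analysed here. T24 is an established line from a human bladder tumour. The cells received a small interfering RNA against TRAIP (siTRAIP, 3 libraries) or a control small interfering RNA (siNC, 3 libraries), both delivered with Lipofectamine, and RNA was sequenced from libraries made with a stranded mRNA kit. TRAIP encodes a RING-type ubiquitin ligase, and the title of the study ties it to ubiquitination of MYC and to bladder cancer progression. The table's column names give a single TRAIP reagent, siTR2, whose sequence is not given in the sources used here, so its effect cannot be told apart from effects particular to that reagent. Whether a group's 3 libraries are separate cultures is not stated in the labels, and the p-values reflect the spread between these libraries alone, part or all of which may be technical.

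Integrins are cell-surface receptors made of an alpha and a beta subunit, and the pair decides which matrix protein is bound. Laminins are secreted trimers of an alpha, a beta and a gamma chain that form the sheet of the basement membrane. Cells hold on to them through ITGA3, ITGA6 or ITGA7 paired with ITGB1, or, in epithelia, through ITGA6 paired with ITGB4 in hemidesmosomes. In urothelium, as in other epithelia, LAMA3 and LAMB3 encode chains of the anchoring laminin under hemidesmosomes. In blood cells the partners differ: ITGB2 pairs with leukocyte alpha subunits such as ITGAL, ITGAM and ITGAX.

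The promoter windows of RefSeq (GRCh38.p14, from 250 bases before to 50 bases after each listed start) held an entry for 23 of the 34 genes, in 30 windows. They were searched on both strands for the MYC-MAX E-box CACGTG, because the study concerns MYC, and for the AP-1 motif TGANTCA, the TEAD motif GGAATG and the GC box GGGCGG, no motif being contained in another. The E-box was in 1 of the 30 windows of the set, from ITGA6, and in 7.26% of all 35116 windows. AP-1 letters were in 3 of the 30 windows (from LAMA3, LAMB3 and ITGA5) and in 7.71% of all windows. TEAD letters were in 4 of the 30 (from ITGA10, LAMA2, ITGB1 and ITGA5) and in 14.0% of all windows. The GC box was in 17 of the 30, from 12 genes, and in 45.0% of all windows. The E-box and AP-1 matches are shown because LAMA3, which rose in siTRAIP cells, and LAMB3, which fell, both hold the AP-1 letters, while ITGA6, the gene with the E-box, was not called. Capitals mark the motif, each sequence is written 5′ to 3′ on the strand of the gene with 11 bases on either side, and the windows belong to 1 of 3 listed LAMB3 starts, 1 of 2 listed ITGA6 starts and a LAMA3 start inside the gene.
LAMA3 (chr18:23872884-23872912, plus strand, 125 bases before the start): ctggcacaggcTGACTCAtgtgtgaagtt
LAMA3 (chr18:23872940-23872968, plus strand, 69 bases before the start): ccttcctcaccTGAGTCAggcaggcccgg
LAMB3 (chr1:209651424-209651452, minus strand, 67 bases before the start): gtcagccactcTGACTCAttcactttggg
ITGA5 (chr12:54419255-54419283, minus strand, 6 bases before the start): cctccccgcgtTGAGTCAttcgcctctgg
ITGA6 (chr2:172427224-172427251, plus strand, 101 bases before the start): gtatgcatctgCACGTGggcccacatct
These matches describe letters in the windows and were not tested as binding sites.

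Total gene counts were 39111793 to 70439496 in siTRAIP libraries and 54818483 to 58066330 in siNC libraries. TRAIP itself had 12.5, 14.7 and 11.6 CPM (counts scaled to library size) in siTRAIP libraries, against 26.6, 28.3 and 28.4 CPM in siNC libraries, a log2 fold change of −1.11 ± 0.07 (SE) with an adjusted p of 6.74e-10. In the marker check, 7 of 8 markers listed for T24 were at 1 CPM or more on average in both groups (CDH1 was at 0 to 0.102 CPM), and of these KRT7 fell by 0.18 on the log2 scale. The T24 list summed to 3962 to 4308 CPM in siTRAIP libraries and 4326 to 4387 CPM in siNC libraries, without overlap. The endothelial markers summed to 0.0440 to 0.263 CPM in siTRAIP libraries and 0.0361 to 0.168 CPM in siNC libraries, and the urothelial differentiation list (5 of 7 genes in the table) to 19.5 to 21.1 CPM in siTRAIP libraries and 18.6 to 20.5 CPM in siNC libraries. Most of that sum was PPARG, at 18.9 ± 1.18 CPM in siTRAIP cells and 18.4 ± 1.04 CPM in siNC cells, while UPK2 was at 0.767 ± 0.305 CPM in siTRAIP cells and 0.893 ± 0.0882 CPM in siNC cells, GATA3 was lower still, and UPK1A and UPK3A were at or near 0. Library siTRAIP replicate 3 stood apart. Chi-square over degrees of freedom, across genes past a minimum count in the pair, was 17.4 and 18.0 against the other siTRAIP libraries. It was 3.35 between those, and 4.57 to 7.93 among siNC libraries. This statistic grows with depth, and siTRAIP replicate 3 had the largest total count, 70439496. That library was also the siTRAIP library farthest from the others in 10 of the 15 integrin and laminin genes that averaged at least 10 CPM in both groups. In bulk RNA such as this, fewer cells of a type and less RNA per cell cannot be told apart.

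Of the 18685 genes with enough counts for the test, 2393 (12.8%) had an adjusted p under 0.05 (edgeR quasi-likelihood F-test), 1396 (7.47%) higher and 997 (5.34%) lower in siTRAIP cells. With libraries scaled by total counts alone, 838 genes rose and 2050 fell. Of the integrin and laminin genes, 27 entered the test and 6 (22.2%) were called. LAMA4, ITGB1 and LAMA3 rose, and ITGB2, LAMA5 and LAMB3 fell. With limma on log2(RPKM + 0.1), which uses unscaled totals, LAMA5 alone of these was called (adjusted p = 0.0478). When only genes with at least 1 CPM in 3 libraries were tested with edgeR, 2507 of 14480 genes were called, and in the set 3 rose and 4 fell. How many genes of the set passed that filter was not counted, so the shares cannot be compared there. By family, 1 of 17 tested integrin genes rose and 1 fell, and 2 of 10 tested laminin genes rose and 2 fell. The set did not shift to one side: its median log2 fold change was 0.01, against −0.002 over all tested genes, and its median absolute log2 fold change was 0.129, against 0.125. The siTRAIP and siNC libraries did not overlap in 9 of the 27 (33.3%), 4 higher and 5 lower in siTRAIP cells. Over all tested genes 29.1% did not overlap, 14.8% higher and 14.4% lower. The remaining 7 genes, ITGA4, ITGA11, ITGAL, ITGAX, ITGB6, LAMB4 and LAMC3, had at most 8 counts in any library and were not tested.

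**Figure D1:**
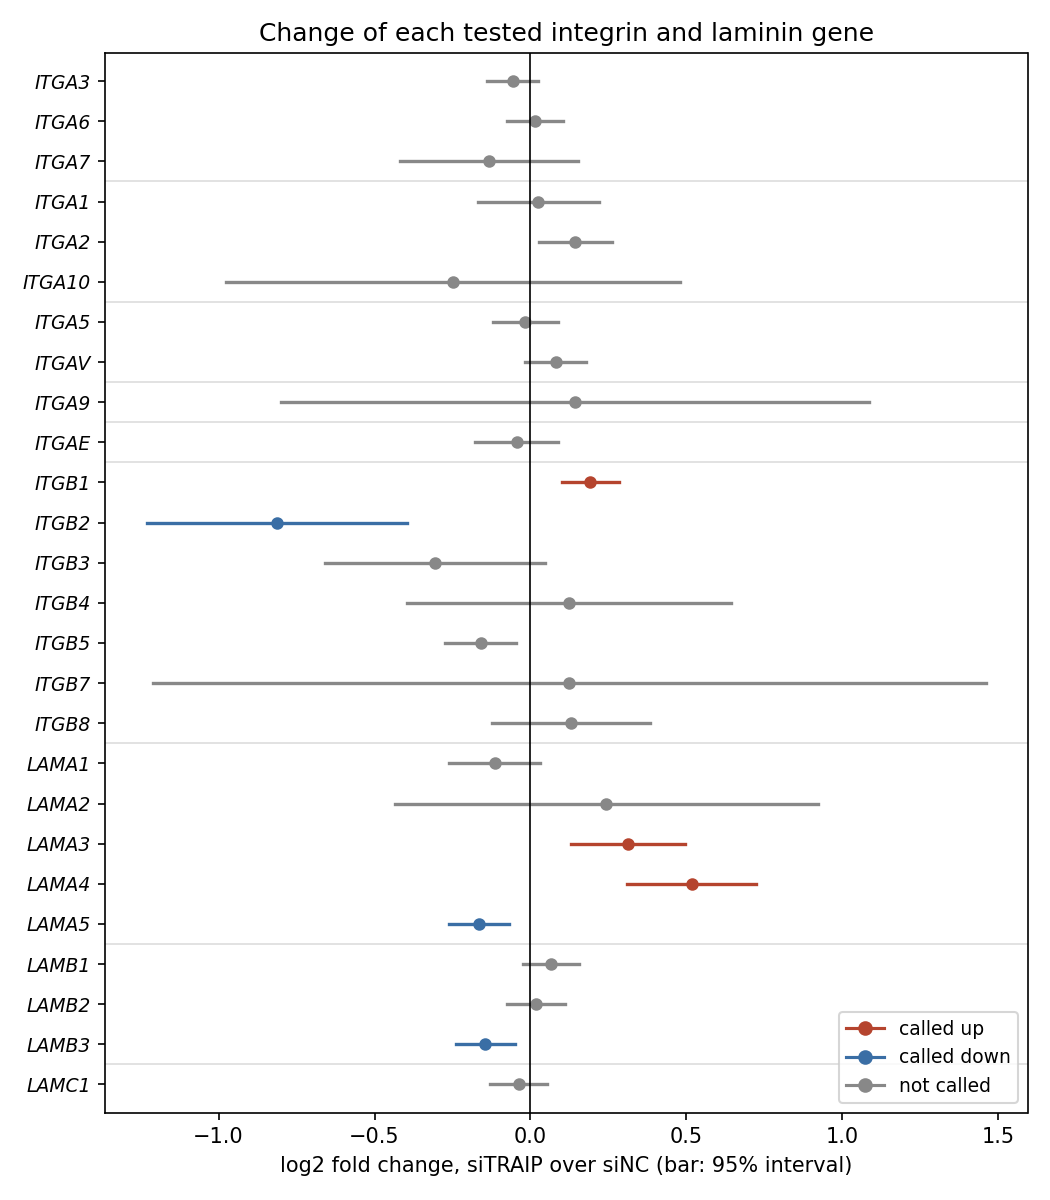
Log2 fold change of siTRAIP over siNC (horizontal axis) for the tested integrin and laminin genes, with 95% intervals from the edgeR fit. The 6 called genes lie on both sides of 0, from −0.81 for ITGB2 to 0.52 for LAMA4, and the genes not called lie between −0.31 and 0.24.

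Levels between genes were compared as RPKM, the count scaled by the length of a gene's exons and by the library total, as deposited. In siTRAIP cells ITGB1 stood at 169 ± 9.67 RPKM (SD, n = 3), against 155 ± 1.01 RPKM in siNC cells, the highest level of the set in both groups. LAMB3 followed with 100.4 ± 6.25 RPKM in siTRAIP cells and 116 ± 3.25 RPKM in siNC cells. ITGA6 had 68.1 ± 3.02 RPKM in siTRAIP cells and 70.3 ± 1.95 RPKM in siNC cells. These were followed in both groups by LAMC1, LAMB1, ITGA3 and LAMB2, and no neighbours in this order overlapped in level in either group. The receptor side of the set was thus led by ITGB1, ITGA6 and ITGA3, and the ligand side by LAMB3, LAMC1 and LAMB1. Further down, the order was less firm: the ranges of LAMA5 and ITGB5 overlapped in siTRAIP cells, those of LAMA5 and ITGAV in siNC cells, and those of LAMA1 and LAMA3 in siTRAIP cells. The laminin alpha chains were low beside their partners, with LAMA5 at 5.78 ± 0.258 RPKM in siTRAIP cells and 6.75 ± 0.247 RPKM in siNC cells, and LAMA1, LAMA3 and LAMA4 each under 1 RPKM. RPKM divides by the merged length of all exons, which lowers the level of genes with long merged models such as ITGA1 (18566 bases), ITGB8 (15156 bases) and LAMA3 (13522 bases).

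**Figure D2:**
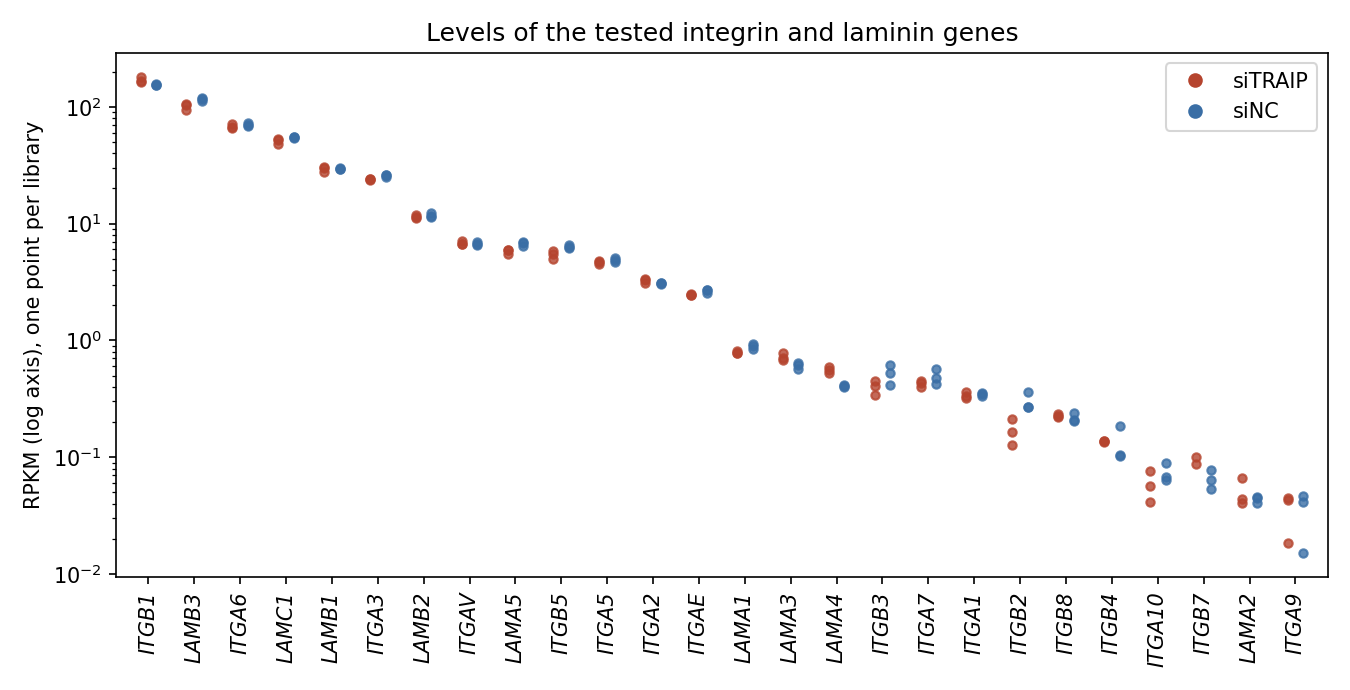
RPKM (log axis) of the tested integrin and laminin genes in each library, siTRAIP left of siNC for every gene. The points of ITGB1, LAMB3, ITGA6 and LAMC1 lie highest in both groups, and ITGB7, which is 0 in siTRAIP replicate 1, lacks that point.

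Among the beta subunits, ITGB1 rose and ITGB2 fell. ITGB1 (chromosome 10, 32900319 to 33005792, minus strand) encodes the subunit shared by the laminin, collagen and fibronectin receptors of most adherent cells. It had 1022, 989 and 1107 CPM in siTRAIP libraries 1 to 3, against 902, 919.8 and 909.8 CPM in siNC libraries. Every siTRAIP library was above every siNC library, and siTRAIP replicate 3 was the highest. The means were 1039 ± 61.0 CPM in siTRAIP cells and 911 ± 8.91 CPM in siNC cells (SD, n = 3 each), a log2 fold change of 0.19 ± 0.04 (SE; 95% interval 0.10 to 0.28; adjusted p = 0.00478). The call held with any 1 library left out, and the log2 fold change was 0.14 without siTRAIP replicate 3. The pseudogene ITGB1P1 had 4.66 to 5.51 CPM in siTRAIP libraries and 4.44 to 4.83 CPM in siNC libraries, so a small share of reads could be split between them.

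ITGB2 (chromosome 21, 44885953 to 44931989, minus strand), the beta subunit of leukocyte integrins, had 1.501, 1.14 and 0.885 CPM in siTRAIP libraries, against 1.80, 1.82 and 2.40 CPM in siNC libraries. The groups did not overlap, and siNC replicate 3 was the highest. The log2 fold change was −0.81 ± 0.20 (SE; 95% interval −1.23 to −0.40; adjusted p = 0.00790), with 52 to 61 counts per siTRAIP library and 101 to 143 per siNC library. Without siNC replicate 3 the log2 fold change was −0.66 and the adjusted p 0.0723. Of the leukocyte markers, PTPRC was at 0 to 0.0580 CPM in siTRAIP libraries and 0 to 0.0349 CPM in siNC libraries, and CD14 reached at most 0.108 CPM. The leukocyte alpha subunits ITGAL and ITGAX had at most 6 counts in any library. CD68, the other leukocyte marker above 1 CPM, had 38.8 to 46.1 CPM in siTRAIP libraries and 34.1 to 36.0 CPM in siNC libraries. It was called higher (log2 fold change 0.31, adjusted p = 9.17e-04). The whole list (5 of 8 genes in the table, ITGB2 among them) summed to 39.7 to 47.6 CPM in siTRAIP libraries and 36.1 to 38.5 CPM in siNC libraries, mostly from CD68. The part of the other list genes in the ITGB2 result was not tested. The antisense gene ITGB2-AS1 shares 4.46% of the exonic bases of ITGB2, and it had 1.03, 0.923 and 0.682 CPM in siTRAIP libraries, against 1.31, 0.867 and 1.52 CPM in siNC libraries. Whether counting used the strand is not given in the sources used here, so reads in that overlap cannot be assigned to either gene.

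The other beta subunits were not called. ITGB5, which pairs with ITGAV to bind vitronectin, came nearest, with 33.2, 36.0 and 38.4 CPM in siTRAIP libraries, against 39.3, 40.1 and 41.1 CPM in siNC libraries. The groups did not overlap, and siTRAIP replicate 3 was the siTRAIP library closest to siNC. The log2 fold change was −0.16 (95% interval −0.27 to −0.05; adjusted p = 0.0575), and without siTRAIP replicate 3 it was −0.22 with an adjusted p of 0.00346. ITGB3, the beta subunit of the vitronectin receptor of osteoclasts, had 1.79 ± 0.252 CPM in siTRAIP cells and 2.24 ± 0.427 CPM in siNC cells, a log2 fold change of −0.31 with an adjusted p of 0.282. A gene on the same strand, RP11-290H9.2, shares 51.6% of the exonic bases of ITGB3, and the 2 cannot be told apart there. ITGB4, the hemidesmosome subunit, was low, at 0.950 ± 0.00633 CPM in siTRAIP cells and 0.869 ± 0.307 CPM in siNC cells, a log2 fold change of 0.12 with an adjusted p of 0.824. ITGB8, a partner of ITGAV in the release of active TGF-beta, had a log2 fold change of 0.13 (adjusted p = 0.580). ITGB7, a lymphocyte subunit, had one of 0.12 (adjusted p = 0.937), from 0.287 ± 0.251 CPM in siTRAIP cells and 0.286 ± 0.0546 CPM in siNC cells, and the opposite-strand gene ZNF740 shares 42.1% of its exonic bases.

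No alpha subunit was called among the 10 tested. The laminin receptor subunits were close in both groups. ITGA6 had 454 ± 19.95 CPM in siTRAIP cells and 450.1 ± 9.10 CPM in siNC cells, a log2 fold change of 0.01 (95% interval −0.07 to 0.10; adjusted p = 0.888). ITGA3 had 240.5, 240.7 and 235 CPM in siTRAIP libraries, against 251, 244 and 250.4 CPM in siNC libraries, so the groups did not overlap, but the log2 fold change was −0.06 with an adjusted p of 0.416. With libraries scaled by total counts alone it was −0.12 (adjusted p = 0.0496). ITGA7, a laminin receptor subunit best known from muscle, had 2.79 ± 0.163 CPM in siTRAIP cells and 3.05 ± 0.431 CPM in siNC cells (adjusted p = 0.615).

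Of the collagen-binding subunits, ITGA2 had 25.3, 27.0 and 26.6 CPM in siTRAIP libraries, against 24.1, 24.2 and 23.2 CPM in siNC libraries. All siTRAIP libraries were higher, by a log2 fold change of 0.14 (95% interval 0.03 to 0.26), and the adjusted p of 0.108 was above the threshold. ITGA1 had 6.42 ± 0.421 CPM in siTRAIP cells and 6.30 ± 0.129 CPM in siNC cells (adjusted p = 0.917), and ITGA10, a subunit known from cartilage, 0.375 ± 0.115 CPM in siTRAIP cells and 0.456 ± 0.0843 CPM in siNC cells (adjusted p = 0.735). PELO and CTD-2207L17.1, on the strand of ITGA1, share 2.56% and 3.08% of the exonic bases of ITGA1 and cannot be told apart from it there. PELO had 15.8 ± 0.910 CPM in siTRAIP cells and 16.4 ± 2.06 CPM in siNC cells.

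The subunits that recognise the RGD motif of fibronectin and vitronectin were close in both groups. ITGAV had 57.4 ± 2.01 CPM in siTRAIP cells and 54.3 ± 1.46 CPM in siNC cells (log2 fold change 0.08, adjusted p = 0.310). ITGA5, the fibronectin receptor subunit, had 36.0 ± 0.589 CPM in siTRAIP cells and 36.4 ± 1.31 CPM in siNC cells (log2 fold change −0.02, adjusted p = 0.891). ITGAE, the subunit by which intraepithelial lymphocytes bind E-cadherin, had 16.7 ± 0.193 CPM in siTRAIP cells and 17.2 ± 0.669 CPM in siNC cells (adjusted p = 0.744). The opposite-strand gene GSG2 shares 6.41% of the exonic bases of ITGAE. GSG2 had 16.9 ± 1.34 CPM in siTRAIP cells and 18.3 ± 1.34 CPM in siNC cells, so part of the ITGAE count may belong to it. ITGA9 was at 0.298 ± 0.121 CPM in siTRAIP cells and 0.279 ± 0.138 CPM in siNC cells (adjusted p = 0.895). The opposite-strand gene ITGA9-AS1 shares 6.46% of the exonic bases of ITGA9. It had 1.07 ± 0.174 CPM in siTRAIP cells and 0.857 ± 0.318 CPM in siNC cells. Over the whole set, 12 uncalled genes averaged at least 10 CPM in both groups, and the widest bound of their 95% intervals was 0.27 on the log2 scale.

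The laminin alpha chains, which carry the integrin-binding domain of the trimer, held 3 of the 6 calls of the set: LAMA4 and LAMA3 rose and LAMA5 fell. LAMA4 (chromosome 6, 112108760 to 112254939, minus strand), the chain known from blood vessels, fat and muscle, had 7.08, 6.13 and 6.63 CPM in siTRAIP libraries, against 4.66, 4.68 and 4.52 CPM in siNC libraries. The lowest siTRAIP library was well above the highest siNC library. The means were 6.61 ± 0.476 CPM in siTRAIP cells and 4.62 ± 0.0834 CPM in siNC cells, a log2 fold change of 0.52 ± 0.10 (SE; 95% interval 0.31 to 0.72; adjusted p = 8.99e-04). It was the largest rise of the set, and the call held with any 1 library left out.

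LAMA3 (chromosome 18, 23689443 to 23955066, plus strand), the alpha chain of the hemidesmosomal laminin, had 10.96, 9.27 and 9.85 CPM in siTRAIP libraries, against 8.16, 8.58 and 7.42 CPM in siNC libraries. The groups did not overlap, and siTRAIP replicate 1 was the highest. The log2 fold change was 0.31 ± 0.09 (SE; 95% interval 0.13 to 0.50; adjusted p = 0.0191). The adjusted p was 0.109 without siTRAIP replicate 1, 0.0598 without siNC replicate 1 and 0.121 without siNC replicate 3, and 0.0511 with libraries scaled by total counts alone.

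LAMA5 (chromosome 20, 62307955 to 62367312, minus strand), the alpha chain of most adult epithelial basement membranes and the most abundant one here, fell. It had 88.0, 85.8 and 80.4 CPM in siTRAIP libraries, against 97.9, 92.2 and 94.7 CPM in siNC libraries. Every siTRAIP library was below every siNC library, and the log2 fold change was −0.17 ± 0.05 (SE; 95% interval −0.26 to −0.07; adjusted p = 0.0176). Without siNC replicate 1 the log2 fold change was −0.14 and the adjusted p 0.115. The opposite-strand genes ADRM1 and LAMA5-AS1 share 1.70% and 0.822% of its exonic bases. LAMA1, the chain of the early embryo and kidney, had 12.8 ± 0.353 CPM in siTRAIP cells and 13.8 ± 0.645 CPM in siNC cells (adjusted p = 0.344). LAMA2, the muscle chain, had 0.517 ± 0.143 CPM in siTRAIP cells and 0.436 ± 0.0291 CPM in siNC cells (adjusted p = 0.717).

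**Figure D3:**
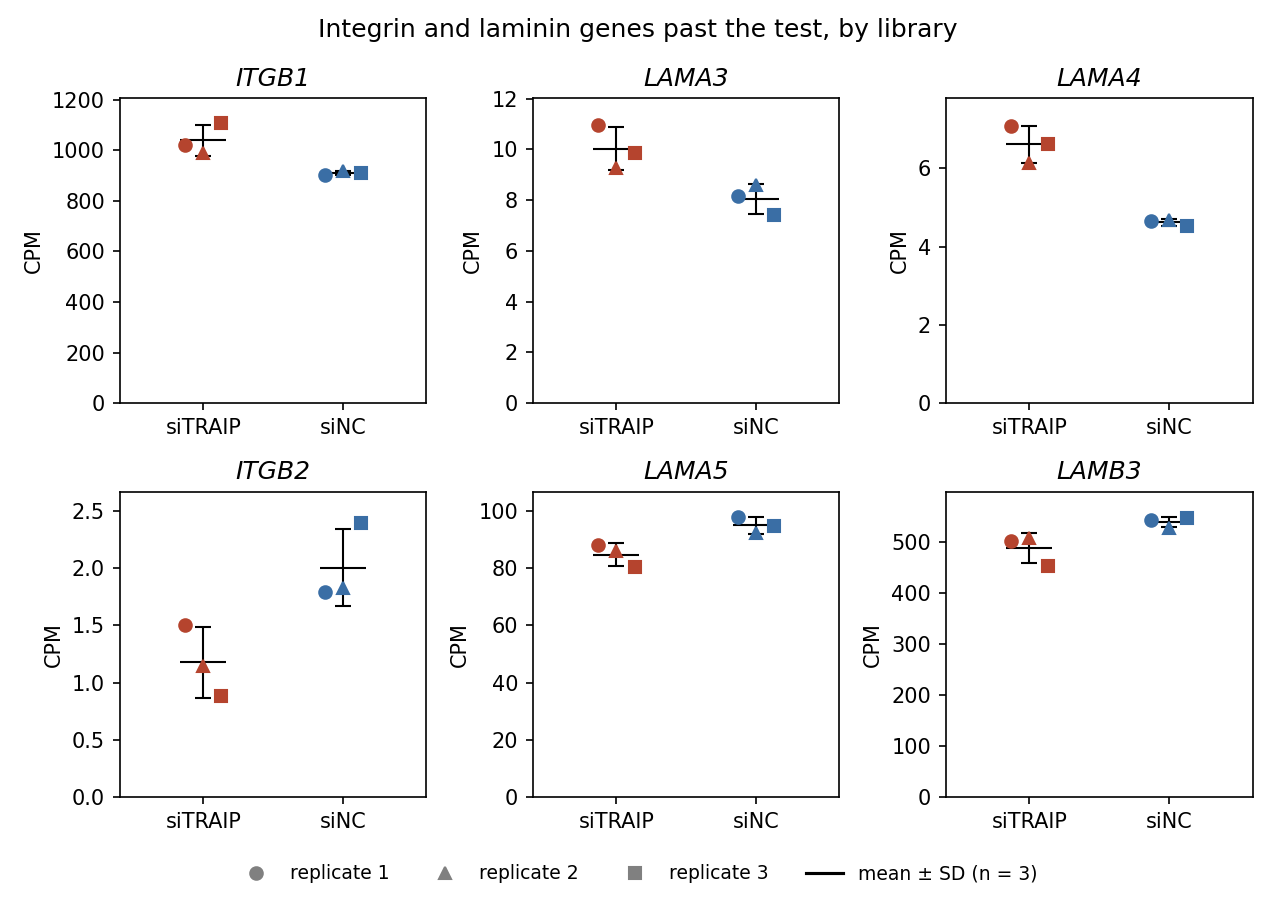
CPM of the 6 called genes in each library, siTRAIP left of siNC, with bars for the mean and SD; each panel has its own axis. All siTRAIP points of LAMA4, ITGB1 and LAMA3 lie above the siNC points, and all those of ITGB2, LAMA5 and LAMB3 lie below.

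Of the laminin beta chains, LAMB3 fell. LAMB3 (chromosome 1, 209614870 to 209652466, minus strand), a partner of LAMA3, had 502, 506 and 453 CPM in siTRAIP libraries, against 543, 527 and 545 CPM in siNC libraries. The groups did not overlap, and siTRAIP replicate 3 was the lowest. The means were 487 ± 29.7 CPM in siTRAIP cells and 538 ± 10.3 CPM in siNC cells, a log2 fold change of −0.14 ± 0.05 (SE; 95% interval −0.24 to −0.05; adjusted p = 0.0359). The adjusted p was above the threshold without siTRAIP replicate 3 (0.0590, log2 fold change −0.10) and without siNC replicate 1 (0.135), 2 (0.0690) or 3 (0.122), and it was 0.0546 with robust=FALSE.

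LAMB1, the beta chain of most laminins, had 252, 251 and 232 CPM in siTRAIP libraries, against 231, 236 and 235 CPM in siNC libraries. Here siTRAIP replicate 3 lay among the siNC libraries and the other siTRAIP libraries above them. The log2 fold change was 0.06 with an adjusted p of 0.386, and without siTRAIP replicate 3 it was 0.10 with an adjusted p of 0.0497. LAMB2, the beta chain of neuromuscular and kidney laminins, had 80.3 ± 2.13 CPM in siTRAIP cells and 79.4 ± 3.15 CPM in siNC cells (adjusted p = 0.876).

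LAMC1, the gamma chain of most laminins, had 437 ± 22.9 CPM in siTRAIP cells and 448 ± 9.46 CPM in siNC cells. It was not called (log2 fold change −0.04, adjusted p = 0.669).

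Shares of the summed RPKM of each subunit class within a library do not depend on how libraries are scaled, and they are given without a test. Shares and ratios of called genes largely follow from the calls given above and are not separate results. Of the alpha chains, LAMA5 made up 73.1 ± 1.13% in siTRAIP cells and 77.6 ± 0.481% in siNC cells. LAMA3 made up 9.18 ± 0.586% in siTRAIP cells and 6.99 ± 0.569% in siNC cells, and LAMA4 7.08 ± 0.431% in siTRAIP cells and 4.69 ± 0.144% in siNC cells. For each of these 3 chains the groups did not overlap, and the share of LAMA1 overlapped, at 9.99 ± 0.600% in siTRAIP cells and 10.2 ± 0.254% in siNC cells. The ratio of LAMA5 to LAMA4 was 10.0, 11.3 and 9.77 in siTRAIP libraries, against 16.95, 15.9 and 16.9 in siNC libraries.

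Among the beta chains, LAMB3 made up 71.0 ± 0.573% in siTRAIP cells and 73.8 ± 0.507% in siNC cells, and LAMB1 20.9 ± 0.198% in siTRAIP cells and 18.7 ± 0.393% in siNC cells, without overlap. A smaller share of LAMB3 by itself raises the shares of the other beta chains. LAMB1 was not called, and its level was 29.5 ± 1.39 RPKM in siTRAIP cells and 29.3 ± 0.367 RPKM in siNC cells. The ratio of LAMB3 to LAMA3 was 139 ± 14.3 in siTRAIP cells and 191 ± 17.3 in siNC cells, without overlap. It sets a gene called lower over a gene called higher, so this separation largely follows from those calls. Summed over a class, beta to alpha chains stood at 17.9 ± 0.612 in siTRAIP cells and 18.0 ± 0.464 in siNC cells, with overlapping groups.

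**Figure D4:**
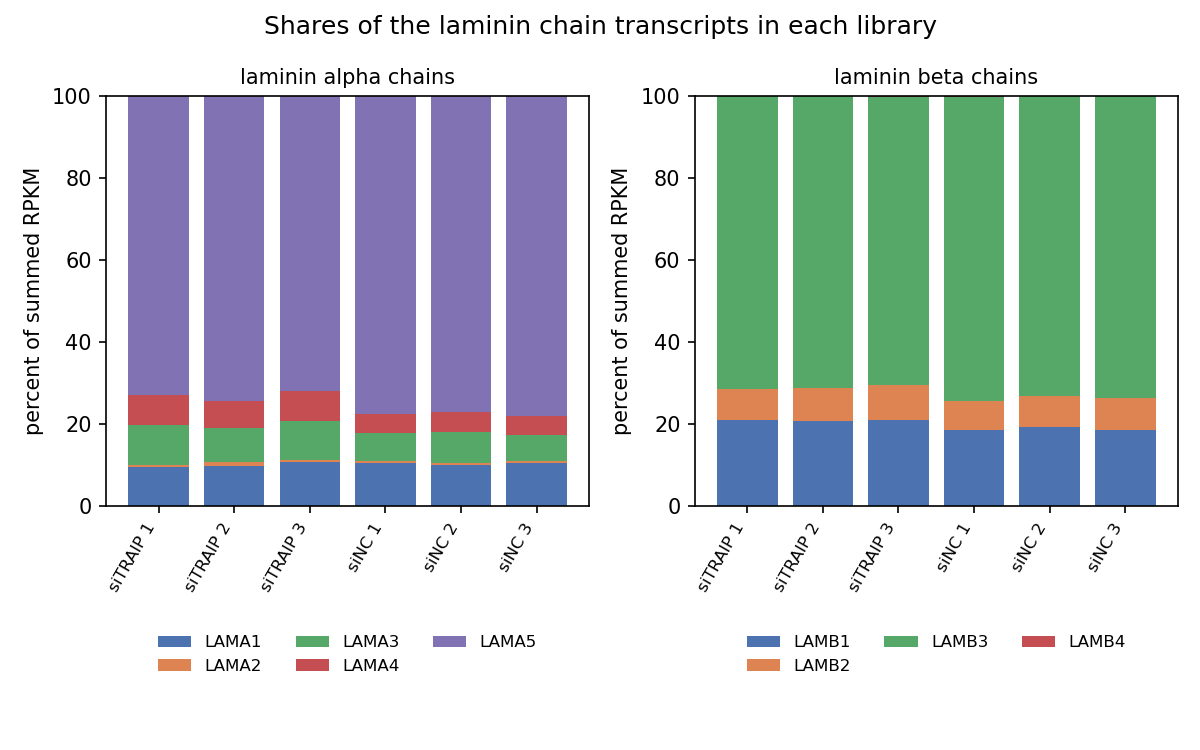
Percent of the summed RPKM of the laminin alpha chains and of the laminin beta chains taken by each chain, siTRAIP libraries left of siNC libraries. LAMA5 and LAMB3 take smaller shares in every siTRAIP library (73.1 and 71.0% on average) than in any siNC library (77.6 and 73.8% on average), and LAMA3, LAMA4 and LAMB1 larger ones. The shares of a class depend on each other, and LAMB1 itself was not called.

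For the receptors, ITGB1 made up 96.3 ± 0.209% of the beta subunit RPKM in siTRAIP cells and 95.3 ± 0.170% in siNC cells, and ITGB5 3.10 ± 0.171% in siTRAIP cells and 3.92 ± 0.0757% in siNC cells. Neither overlapped. The ratio of ITGB1 to ITGA6 was 2.50, 2.43 and 2.52 in siTRAIP libraries, against 2.20, 2.25 and 2.15 in siNC libraries. The summed beta subunits stood to the summed alpha subunits at 1.596 ± 0.0515 in siTRAIP cells and 1.42 ± 0.0271 in siNC cells, also without overlap. The ratio of ITGAV to ITGB5 was 1.26 ± 0.0797 in siTRAIP cells and 1.06 ± 0.0529 in siNC cells. ITGA6 kept its share of the alpha subunits, at 61.9 ± 1.04% in siTRAIP cells and 61.4 ± 0.530% in siNC cells. It exceeded ITGB4 by 495 ± 18.4-fold in siTRAIP cells and 573 ± 160-fold in siNC cells, with overlapping groups, so transcripts of the hemidesmosomal partner were scarce in both.

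The 10 lists of genes that act with integrins and laminins held 149 entries, of which 122 were tested: 13 rose and 13 fell (21.3% called, against 12.8% of all tested genes), with a median log2 fold change of −0.04. With total counts alone 11 rose and 21 fell, and with limma on log2(RPKM + 0.1) 5 rose and 9 fell. The 12.8% includes many genes with low counts. When only genes with at least 1 CPM in 3 libraries were tested, 2507 of 14480 genes were called, and 12 list genes rose and 12 fell. How many list genes passed that filter was not counted, so the shares cannot be compared there. With that limma fit PTK2, LPP, ENAH, BCAR1, PARVG, TSPAN14, COL17A1, FRAS1, SDC1, COL6A3, LTBP3 and L1CAM lost the calls given for them here. Inside the cell, integrins are switched on by talins and kindlins and linked to actin by focal adhesion proteins. Of 8 tested activators, 1 fell, FERMT2 (kindlin-2), by 0.21 on the log2 scale (adjusted p = 0.00223), and the list median was −0.11. None of 12 inactivators and adaptors of the integrin tail was called.

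The focal adhesion list had the most calls, with 3 of 25 genes higher and 7 lower in siTRAIP cells and a median of −0.09. LPP, a zyxin relative, rose by 0.32 (adjusted p = 3.49e-05), PTK2, the focal adhesion kinase, by 0.20 (adjusted p = 0.00151), and ENAH, an actin-elongation factor, by 0.24 (adjusted p = 0.00707). CRK, an adaptor downstream of the kinase, fell by 0.39 (adjusted p = 2.47e-06). These 4 kept their calls with any 1 library left out, but with limma on log2(RPKM + 0.1) the adjusted p was 0.0577 for LPP, 0.0530 for PTK2 and 0.141 for ENAH. The other falls, named here after their values were seen, were the adaptors ZYX (−0.20), LIMS1 (−0.19), BCAR1 (−0.23), GIT2 (−0.15) and PARVG (−1.18) and the actin crosslinker ACTN4 (−0.14), all as log2 fold changes. PARVG was scarce, with 14 to 16 counts per siTRAIP library and 32 to 53 per siNC library. ZYX lost its call without siTRAIP replicate 1 or siNC replicate 3 (adjusted p up to 0.0551), LIMS1 without siNC replicate 2 or 3 (up to 0.0644) and ACTN4 without any siNC library (up to 0.125). BCAR1 lost it without siTRAIP replicate 1 or 3 or siNC replicate 3 (up to 0.0979), GIT2 without siTRAIP replicate 2 or siNC replicate 1 or 2 (up to 0.121) and PARVG without siTRAIP replicate 2 or 3 or siNC replicate 1 or 3 (up to 0.190).

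Of the other partners in the membrane, SDC4, a syndecan of focal adhesions that binds heparin-binding domains of laminin and fibronectin, had 59.7 ± 4.29 CPM in siTRAIP cells and 29.3 ± 0.188 CPM in siNC cells. Its log2 fold change of 1.03 (adjusted p = 2.92e-12) exceeded in size that of any tested integrin or laminin gene. SDC1 rose by 0.22 (adjusted p = 0.00242, and 0.116 with limma), and the other 5 of 7 non-integrin laminin receptors were not called. Of 10 tetraspanins, TSPAN14 fell by 0.14 (adjusted p = 0.0333), a call lost without siTRAIP replicate 1 or 2 or siNC replicate 1 or 2 (adjusted p up to 0.203). Of 17 trafficking genes, the kinesin KIF1C rose by 0.26 (adjusted p = 8.58e-05) and the early endosome GTPase RAB5A by 0.58 (adjusted p = 0.0190), and the endocytic adaptor DAB2 fell by 0.27 (adjusted p = 0.0137). RAB5A lost its call without siTRAIP replicate 1 (adjusted p = 0.05701) or 3 (0.143), and DAB2 without siNC replicate 1 (0.0623). Of 8 immunoglobulin-family counter-receptors, L1CAM rose by 0.13 (adjusted p = 0.0481) and ICAM1, the ligand of ITGB2 integrins, fell by 0.18 (adjusted p = 0.0165). ICAM1 lost its call without siNC replicate 1 (0.0698), 2 (0.0549) or 3 (0.0516), and L1CAM lost its call without any 1 library other than siTRAIP replicate 3 (up to 0.231) and with total counts alone (0.315).

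In the matrix, 2 of 15 basement membrane genes rose and 1 fell (median −0.02). COL4A1, a chain of the collagen network beneath laminin, rose by 0.29 (adjusted p = 7.29e-05) and NTN4, a netrin that binds the laminin gamma chain, by 0.38 (adjusted p = 6.82e-04). FRAS1, an extracellular matrix protein of epithelial basement membranes, fell by 0.40 (adjusted p = 0.00983), a call lost without siTRAIP replicate 1 (adjusted p = 0.0524) or siNC replicate 1 (0.0609). Of 4 tested hemidesmosome genes, COL17A1, the transmembrane collagen of that structure, rose by 0.24 (adjusted p = 0.0102), and its adjusted p was 0.0719 without siNC replicate 2, 0.0539 with total counts alone and 0.119 with limma on log2(RPKM + 0.1).

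Of 17 interstitial ligands, LTBP3, which binds latent TGF-beta in the matrix, rose by 0.34 (adjusted p = 3.14e-04, and 0.0730 with limma), and SPP1 (osteopontin), a ligand of ITGAV integrins, fell by 0.73 (adjusted p = 0.00678). COL6A3 was called higher, at 0.211, 0.220 and 0.638 CPM in siTRAIP libraries, against 0.139, 0.0361 and 0.0838 CPM in siNC libraries. The call (log2 fold change 2.10, adjusted p = 0.0150) was lost without siTRAIP replicate 3 (adjusted p = 0.257), siNC replicate 2 (0.0907) or siNC replicate 3 (0.0693). The same library, siTRAIP replicate 3, had 4.26 CPM of the fibroblast marker COL1A1, where the other siTRAIP libraries had 0.923 and 1.03 CPM and the siNC libraries 1.05 to 1.11 CPM. In that library COL3A1 (0.435 CPM), COL1A2 (0.261 CPM) and PDGFRA (0.174 CPM) were also higher than in any other library, at 12 to 30 counts. PDGFRB and COL6A2 were highest in a siNC library. The whole fibroblast list (6 of 8 genes in the table) summed to 119.7 to 126 CPM in siTRAIP libraries and 122 to 124 CPM in siNC libraries. That sum was mostly from COL6A2, so it hardly reflects the other genes of the list. Its part in the COL6A3 result was not tested.

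Short words in the transcripts were also counted for the set. An earlier analysis of these fold changes had picked the words ACAGTCT and CAGTCTA as frequent in genes that fell and TCGGAGA and CGGAGAA as frequent in genes that rose, so their link to direction is not independent. In coding and 3′ UTR sequence (GENCODE v29, the transcript with the longest coding sequence), 7 of the 27 tested genes of the set had a fall word, against 26.5% of 12607 tested coding genes, and 7 had a rise word, against 18.8%. A longer sequence is more likely to hold a word, and length was not matched. Some genes of the set are long, such as LAMA5 (11085 coding bases) and LAMA1 (9225), which both had a rise word. Of the 6 called genes, ITGB2 had a fall word, LAMA5 a rise word, LAMA4 both kinds, and ITGB1, LAMA3 and LAMB3 none.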

How the data were processed

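RNA was measured in 6 libraries of T24 cells, 3 siTRAIP and 3 siNC, with groups and replicate numbers taken from the sample titles. The authors deposited a table of raw counts per gene, in whole numbers, with merged exon lengths in bases. They also deposited RPKM values, which match count over length and library total to a relative difference of 1.25e-06. Per the submitters' processing notes, the build was GRCh38 and the tools included Subread 1.5.1, featureCounts and Trimmomatic 0.36. No aligner, annotation release or strand setting is given in the sources used here. Among counts of 1 to 10, 70.2% were even. Counting a pair's reads singly would give such a share, and a total may then exceed the number of fragments. In the gene column, 26 names had become dates.

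Counts were tested with edgeR 4.0.16 in R 4.3.3 (filterByExpr, TMM, glmQLFit with robust=TRUE, quasi-likelihood F-test, 2-sided, without a replicate block) over the whole table, with Benjamini-Hochberg adjustment and a threshold of 0.05. The common biological coefficient of variation was 5.73%. CPM use TMM-scaled totals, and intervals are at 95%. The fit was tested on simulated counts. Alternatives used DESeq2 1.42.0, limma 3.58.1 on log2(RPKM + 0.1) or log2(RPKM + 1), other filters and scalings, a replicate block and each library left out. Overlaps of exons come from the deposited coordinates. Genes of the set are named, apart from items not reported here, with library values for those called. From each list, up to 4 called genes with the smallest adjusted p are named, plus the first of the minority direction. The members and lists were chosen with earlier results of these data known.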

Additional observations from a re-analysis of the deposited data

How the results depend on the processing

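Of the 96 alternative values for the 6 called genes, 74 kept direction and call, 22 kept the direction only and none reversed. Genes called numbered 2393; limma on log2(RPKM + 0.1) or log2(RPKM + 1) gave 1520 and 1519, and leaving out 1 library gave 1480 to 2622. Integrin and laminin genes called numbered 6; limma gave 1 (LAMA5) with either pseudocount, and leaving out 1 library gave 3 to 7 (3 without siNC replicate 1 or 3, 7 without siTRAIP replicate 3). List genes called numbered 26; limma gave 14 with either, and leaving out 1 library gave 18 to 23. Unscaled totals shift the median of all genes by −0.06 on the log2 scale. They gave 838 genes higher and 2050 lower in siTRAIP cells (2 and 5 of the set), and limma on RPKM gave 461 higher and 1059 lower with a pseudocount of 0.1, against 1396 higher and 997 lower in the reported fit. DESeq2 gave 2313 genes and the same 6 members. ITGB5 was called with no filter on low counts (adjusted p = 0.0458), with a CPM filter (0.0491) and with total counts alone (0.00875). Deviations from the group mean did not correlate between same-numbered libraries of the groups (r = −0.0076, −0.018 and 0.0014). Sampling noise over all tested genes also enters these values, so they cannot decide whether same-numbered libraries were handled together. A replicate block gave 2145 genes, 5 members (without LAMB3, adjusted p = 0.0649) and 25 list genes. With that block the log2 fold change of ITGB7 was −0.065. Each reversal was of an uncalled gene. With total counts alone the log2 fold change was −0.046 for ITGA6, −0.036 for ITGA1 and −0.044 for LAMB2. With limma at pseudocounts of 0.1 and 1 it was −0.047 and −0.046 for ITGA6, −0.026 and −0.0084 for ITGA1, −0.043 and −0.040 for LAMB2, and −0.082 and −0.0041 for ITGB7. With 1 library left out it ran from −0.023 to 0.033 for ITGA6, −0.022 to 0.062 for ITGA1, −0.041 to 0.010 for ITGA5, −0.21 to 0.41 for ITGA9, −0.028 to 0.45 for ITGB4, −0.43 to 0.60 for ITGB7, −0.0086 to 0.046 for LAMB2 and −0.068 to 0.0042 for LAMC1. The cause was not tested.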
